A study of Mus musculus with 31 samples.

Results

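Insulin-like growth factor binding proteins (IGFBPs) were followed in mouse embryonic stem (ES) cells and in embryoid bodies (EBs), the aggregates that ES cells form when they differentiate in suspension. The family was taken as the genes Igfbp1 to Igfbp7, and a gene counted as measured when a probe set of the array carried its symbol and no other. Of the 7 genes, 6 were measured, by 10 of the 12422 probe sets tested. The only probe set of Igfbp5 also carries the symbol Tmem119, so Igfbp5 has no value here. IGFBPs are secreted proteins that bind the growth factors IGF1 and IGF2 outside the cell, carry them, and hold them away from the IGF1 receptor or release them near it when proteases cut the binding protein. IGFBP7 differs from the classical members in that it binds IGFs only weakly. In the mouse embryo IGF2 is the main ligand, made by extraembryonic tissue and mesoderm, and IGF2R removes it from the cell surface without passing on a growth signal.

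The cells were B6 mouse ES cells, and no group had a treatment other than the culture and sorting steps given here. All had been grown on mouse embryonic fibroblast feeders in serum with LIF, the factor that keeps mouse ES cells undifferentiated, and feeders were depleted by letting them settle on gelatin. ES cells on gelatin were cultured once more on gelatin (6 arrays), and sorted ES cells were selected by flow cytometry on an Oct4-GFP reporter (6 arrays). EBs were made from ES cells on gelatin by suspension culture without LIF and were sampled at day 4 (7 arrays), day 8 (6 arrays) and day 14 (6 arrays). The methods speak of biological samples, but the labels do not say which cultures the arrays came from, so p-values measure only the spread between these 31 arrays. RNA was amplified in 2 rounds and hybridised to MgU74Av2 arrays, and the values are signal intensities on a linear scale. Each probe set has its own scale, so a level was compared only with the same probe set in other samples. Summed marker signals add the same probe sets on every array, and the brightest of them weigh most. Since EBs hold several cell types, fewer cells of a type and less RNA per cell cannot be told apart.

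The label of the sort was checked on Pou5f1, the gene of Oct4, whose mean signal was 4719 in ES cells on gelatin, 6419 in sorted ES cells, 4958 at day 4, 1700 at day 8 and 1062 at day 14. Some arrays stood apart from the rest of their group. Arrays 6 and 7 of day 4 had summed signals of 10 pluripotency markers of 37630 and 42470, below the 51421 to 60690 of the other day 4 arrays. Arrays 1, 3 and 5 of day 8 had sums of 46196 to 55562, and arrays 2, 4 and 6 had 25511 to 28797. Results that rest on these arrays are given with and without them. The ratio of 3' to 5' signal of the Gapdh control, a sign of RNA quality, averaged 5.22 ± 1.55 in ES cells on gelatin and 2.92 ± 0.146 in sorted ES cells (SD, n = 6 each), and between 2.31 and 3.12 in the EB groups.

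The family fell into 3 patterns. Igfbp1, Igfbp2 and Igfbp4 were higher in EBs of day 8 and day 14 than in sorted ES cells. Igfbp3 and Igfbp7 had their highest signals in ES cells on gelatin. Igfbp6 changed little. A gene was called by its brightest probe set (limma, Benjamini-Hochberg adjusted p under 0.05). At day 14 against sorted ES cells 5 of the 6 measured genes passed, where 48.8% of all probe sets did; Igfbp1, Igfbp2, Igfbp3 and Igfbp4 were higher and Igfbp6 lower. The groups did not overlap at 3 of the 6, against 31.8% of all probe sets. At day 8 against sorted ES cells 4 of 6 passed, against 35.2% of all probe sets, with Igfbp1, Igfbp2 and Igfbp4 higher and Igfbp7 lower, and all 4 without overlap (19.4% of all probe sets). At day 4 against sorted ES cells limma called 0 of 6, against 24.8% of all probe sets, 1 of 6 had an unadjusted p under 0.05, and the groups overlapped at every one (7.04% of all probe sets did not). ES cells on gelatin differed from sorted ES cells at 3 of 6, against 39.6% of all probe sets, with Igfbp3, Igfbp4 and Igfbp7 higher on gelatin and 2 of them without overlap (25.4% of all probe sets). With so many probe sets passing, the number of family members called is no result about the family, and the size and direction of each gene's change are given below.

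**Figure D1:**
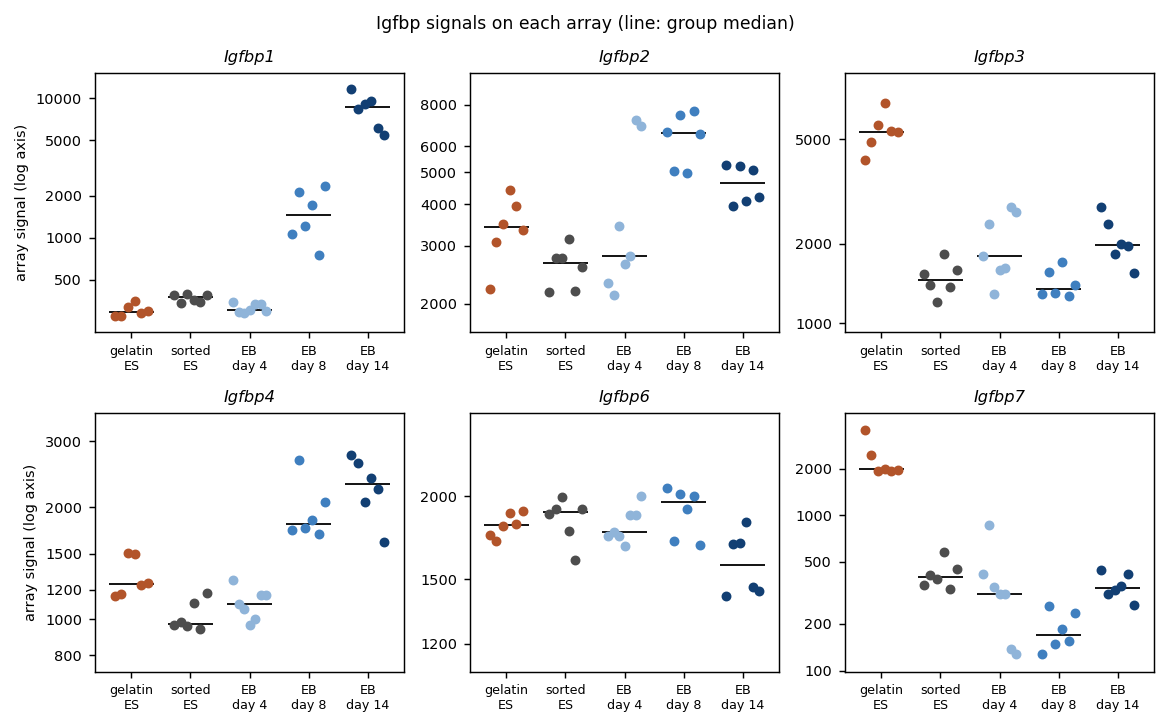
Signal intensity (log axis, one scale per panel) of the brightest probe set of each measured Igfbp gene on each of the 31 arrays, by group, with points in replicate order and a line at the group median. The 6 day 14 arrays of Igfbp1 sit between 5439 and 11610, above every other array, and the 6 arrays of ES cells on gelatin sit above all others for Igfbp3 and Igfbp7.

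Sequences upstream of the genes that moved most are shown because Igfbp1, Igfbp2 and Igfbp4 rose in the same EB groups and Igfbp3 and Igfbp7 were high in the same ES cells. Each is the 150 bases before the annotated start in RefSeq (GRCm38.p6), read 5' to 3' on the strand of the gene. Capitals mark matches to 4 motifs searched on both strands from 250 bases before to 50 bases after the start: the forkhead core AAACAA, read on the other strand as TTGTTT, the HNF1 half-site GTTAAT, read on the other strand as ATTAAC, the TATA box TATAAA, read on the other strand as TTTATA, and the GC box GGGCGG, read on the other strand as CCGCCC. No match overlapped another.
Igfbp1, chr11:7197637-7197786, plus strand: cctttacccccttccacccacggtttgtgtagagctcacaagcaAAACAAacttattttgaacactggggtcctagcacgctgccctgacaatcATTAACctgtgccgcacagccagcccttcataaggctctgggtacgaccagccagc
Igfbp2, upstream start, chr1:72824330-72824479, plus strand: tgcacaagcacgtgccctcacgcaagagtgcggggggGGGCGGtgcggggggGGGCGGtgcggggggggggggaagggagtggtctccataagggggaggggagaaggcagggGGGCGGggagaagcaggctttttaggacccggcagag
Igfbp2, downstream start, chr1:72825237-72825386, plus strand: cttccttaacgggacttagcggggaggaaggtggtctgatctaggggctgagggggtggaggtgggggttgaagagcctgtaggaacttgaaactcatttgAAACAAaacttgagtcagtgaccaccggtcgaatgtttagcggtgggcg
Igfbp4, chr11:99041094-99041243, plus strand: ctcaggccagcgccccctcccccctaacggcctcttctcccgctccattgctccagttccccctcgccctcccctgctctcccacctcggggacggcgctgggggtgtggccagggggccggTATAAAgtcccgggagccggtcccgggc
Igfbp3, chr11:7213924-7214073, minus strand: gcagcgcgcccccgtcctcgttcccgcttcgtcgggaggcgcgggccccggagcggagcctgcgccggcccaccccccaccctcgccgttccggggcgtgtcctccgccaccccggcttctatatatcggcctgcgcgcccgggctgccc
Igfbp7, chr5:77408046-77408195, minus strand: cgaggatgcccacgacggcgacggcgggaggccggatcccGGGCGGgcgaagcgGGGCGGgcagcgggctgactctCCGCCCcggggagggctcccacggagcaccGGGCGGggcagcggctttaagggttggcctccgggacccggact

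Igfbp1 held 1 forkhead core and 1 HNF1 half-site, which 20.7% and 7.1% of the 32851 promoters of this length hold. Igfbp2 has 2 annotated starts, of which the upstream one held 3 GC boxes and the downstream one 1 forkhead core. Igfbp4 held 1 match to the TATA box on its own strand, at -28 from the start. Igfbp6, whose sequence is not shown, held 1 on the other strand, at -148. Of all promoters 13.6% held a match on either strand. Igfbp7 held 4 GC boxes (35.7% of promoters hold at least 1), and Igfbp3 and Igfbp5 held no match. Over the whole window of 300 bases, Igfbp1 had 8 CpG dinucleotides, near the median of 7 over all promoters, the Igfbp2 windows had 18 and 14, and Igfbp4, Igfbp7 and Igfbp3 had 27, 33 and 37, above the upper quartile of 20. Igfbp1 and Igfbp3 are neighbouring genes on chromosome 11, and Igfbp2 and Igfbp5 are neighbours on chromosome 1. These matches are descriptions of the letters, and no binding was measured.

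Igfbp1 encodes a binding protein made by the liver in the adult and by the decidua in pregnancy. It had the greatest change of the family. In ES cells on gelatin its signals were 276, 274, 318, 352, 288 and 300. In sorted ES cells they were 392, 344, 400, 359, 345 and 390. Both groups of ES cells thus lay at a low level. At day 4 the signals were 350, 292, 291, 306, 337, 337 and 298, within the range of the ES cells. At day 8 they were 1065, 2144, 1220, 1713, 752 and 2369, and at day 14 they were 11610, 8325, 9106, 9622, 6077 and 5439. No day 8 array overlapped an ES cell or day 4 array, and no day 14 array overlapped a day 8 array.

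Igfbp1 averaged 8363 ± 2300 at day 14 and 372 ± 25.3 in sorted ES cells (SD, n = 6 each), a 21.8-fold difference (log2 change 4.45 ± 0.20, ± SE, limma, adjusted p 5.882e-16). Day 8 was 3.85-fold above sorted ES cells (1.95 ± 0.20, adjusted p 1.639e-08). Day 14 was in turn 5.66-fold above day 8 (2.50 ± 0.20, adjusted p 1.544e-09). Against ES cells on gelatin, from which the EBs were seeded, the log2 changes were 2.25 at day 8 and 4.75 at day 14. Day 4 differed from sorted ES cells by -0.24 (95% interval -0.62 to 0.15), which did not pass. In the order of levels, day 14 was followed by day 8 and then by sorted ES cells, day 4 and ES cells on gelatin. Their means were 372 ± 25.3, 316 ± 24.8 and 301 ± 29.5 (SD, n = 6, 7 and 6). In the fit over all groups, which shares 1 estimate of the spread, no difference among these 3 passed (ES cells on gelatin against sorted ES cells -0.31, adjusted p 0.225), whereas in fits of the compared groups alone Igfbp1 was lower than in sorted ES cells both at day 4 (adjusted p 0.02032) and on gelatin (adjusted p 0.003756). The day 8 change was 2.47 without arrays 1, 3 and 5 and 1.42 without arrays 2, 4 and 6, and passed both times.

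A second Igfbp1 probe set, made from the same transcript record, was dim at 119 to 186 on every array. Its log2 change was 0.25 at day 14 against ES cells on gelatin (adjusted p 0.02173) and 0.16 at day 14 against sorted ES cells (adjusted p 0.1399). The bright set carries the manufacturer's suffix f, for probes that can match several similar sequences, so a share of its signal from a related transcript was not tested.

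Markers of yolk sac endoderm moved with Igfbp1. Of the 16 markers listed, 14 were measured, and 11 of these were higher and 1 lower in day 14 EBs than in sorted ES cells. In this comparison 48.8% of all probe sets passed in either direction. Their summed signal was 32161 to 41914 at day 14 and 17747 to 30845 at day 8, against 6631 to 9401 at day 4, 6620 to 7374 in sorted ES cells and 6439 to 7346 in ES cells on gelatin. The day 8 arrays with the 3 highest Igfbp1 signals (arrays 2, 4 and 6) had sums of 29452 to 30845, and the other 3 had 17747 to 21918. This split was not particular to yolk sac endoderm. The same arrays were also higher in fibroblast and feeder sums (24795 to 32690 against 17009 to 18364). So were their muscle sums (16875 to 18389 against 11223 to 13075) and endothelial sums (7263 to 8087 against 6225 to 6764). Parietal endoderm and neural sums overlapped. Apoa1, an apolipoprotein of visceral endoderm and liver, averaged 6848 at day 14 and 278 in sorted ES cells, and none of the 14 markers was at the lower limit of signal on all arrays of any group. The median log2 change of the 14 markers against sorted ES cells was smaller, at 0.87 at day 14 and 0.35 at day 8. Markers of other cells also passed at day 14, to be read against the same 48.8%. Of them 6 of 9 parietal endoderm, 5 of 10 endothelial, 6 of 12 muscle and 6 of 12 neural markers were higher than in sorted ES cells, and 1, 2, 3 and 3 lower. Of the 19 fibroblast and feeder markers 10 were higher and 5 lower, with a sum of 38656 to 58290 at day 14 and 20029 to 25873 in sorted ES cells, and all 10 pluripotency markers were lower. The part of cell content in the Igfbp1 result was not tested.

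**Figure D2:**
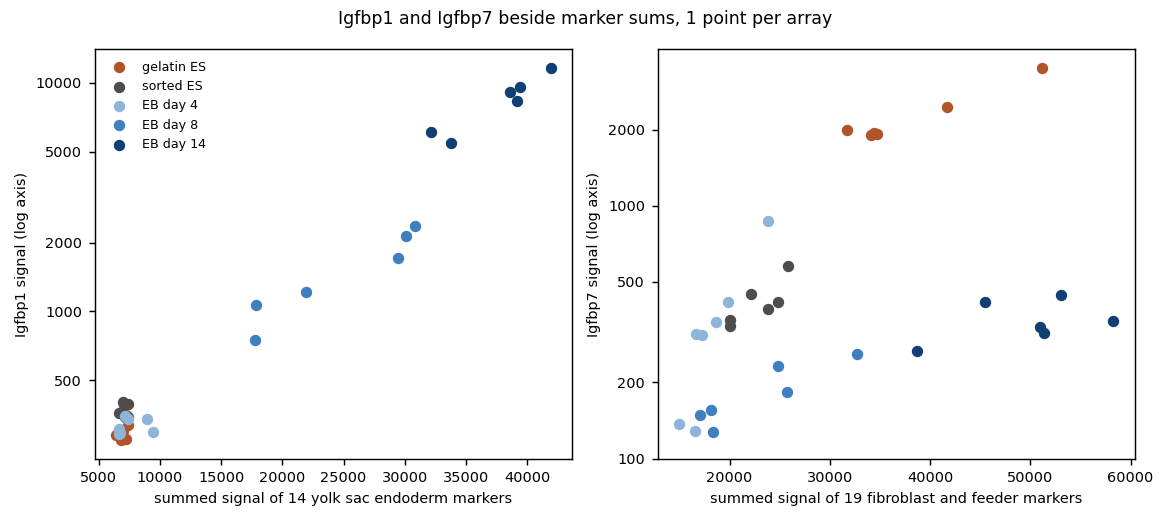
Left, Igfbp1 signal (log axis) against the summed signal of 14 yolk sac endoderm markers. Right, Igfbp7 signal (log axis) against the summed signal of 19 fibroblast and feeder markers. Each point is 1 of the 31 arrays, coloured by group. On the left the day 8 and day 14 arrays separate from the rest on both axes, and on the right the gelatin arrays lie above the day 14 arrays at marker sums that overlap.

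Igfbp2 encodes the binding protein most widely made in fetal tissues. Its signals were 2218, 3068, 3495, 4427, 3956 and 3350 in ES cells on gelatin, and 2166, 2744, 2754, 3136, 2188 and 2579 in sorted ES cells. At day 4 they were 2315, 2132, 3448, 2649 and 2791 on arrays 1 to 5, which overlapped the ES cells, and 7188 and 6891 on arrays 6 and 7. At day 8 they were 6614, 5044, 7461, 4961, 7668 and 6508, and at day 14 they were 5246, 3967, 5240, 4103, 5097 and 4208. Every array of day 8 and day 14 lay above every array of sorted ES cells.

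Day 8 was 2.44-fold above sorted ES cells (log2 change 1.29 ± 0.24, adjusted p 0.0001032) and day 14 was 1.79-fold above them (0.84 ± 0.24, adjusted p 0.004108). Against ES cells on gelatin Igfbp2 was higher at day 8 (0.91, adjusted p 0.002554), whereas the change of 0.46 at day 14 did not pass (adjusted p 0.1126). The rise at day 8 against ES cells on gelatin did not pass without day 8 arrays 1, 3 and 5 (0.71, adjusted p 0.0685). Ordered by mean, day 8 (6376) was followed by day 14 (4644), day 4 (3916), ES cells on gelatin (3419) and sorted ES cells (2594). Day 14 against day 8, day 4 against ES cells on gelatin, and ES cells on gelatin against sorted ES cells did not pass. Days 14 and 4 were not compared, and their ranges overlapped.

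The day 4 value of Igfbp2 rested on 2 arrays. With all 7 arrays the log2 change of day 4 against sorted ES cells was 0.44 (adjusted p 0.168), and without arrays 6 and 7 it was 0.03. Day 8 against day 4 was 0.85 with all arrays (adjusted p 0.006711, with overlapping groups) and 1.26 without arrays 6 and 7 (adjusted p 4.525e-07). It was 0.65 and did not pass without day 8 arrays 1, 3 and 5 (adjusted p 0.1155). Arrays 6 and 7 of day 4 also had the highest yolk sac endoderm sums of their group (8955 and 9401) and the highest signals of Igf2 (4354 and 4621, against 1640 to 1991 on the other 5). The part of stage or cell content in these 2 arrays was not tested.

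Igfbp4 encodes a binding protein that inhibits IGF action and is cut by the protease PAPP-A. Its signals were 1152, 1166, 1508, 1493, 1240 and 1254 in ES cells on gelatin and 964, 983, 959, 1106, 941 and 1174 in sorted ES cells. At day 4 they were 1275, 1102, 1063, 966, 1002, 1165 and 1159, overlapping both. At day 8 they were 1735, 2682, 1759, 1852, 1691 and 2061, and at day 14 they were 2760, 2633, 2064, 2391, 2237 and 1616. All day 8 and day 14 arrays lay above all ES cell and day 4 arrays.

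Igfbp4 was 2.21-fold higher at day 14 than in sorted ES cells (log2 change 1.14 ± 0.11, adjusted p 3.92e-09) and 1.90-fold higher at day 8 (0.93 ± 0.11, adjusted p 4.36e-07). It was also higher than in ES cells on gelatin, by 0.58 at day 8 and by 0.80 at day 14 (adjusted p 0.0001607 and 1.69e-06). Day 14 and day 8 differed by 0.22 (95% interval -0.02 to 0.45, adjusted p 0.1542). That difference passed without day 8 array 2 (0.31, adjusted p 0.02415) and without day 14 array 6 (0.31, adjusted p 0.02655). Day 8 arrays 2, 4 and 6 (1852 to 2682) lay above arrays 1, 3 and 5 (1691 to 1759). The difference was therefore smaller without arrays 1, 3 and 5 and larger without arrays 2, 4 and 6. Below day 8 the order was ES cells on gelatin, day 4 and sorted ES cells, of which no neighbouring pair passed. ES cells on gelatin were 0.35 above sorted ES cells (adjusted p 0.01632), with overlapping groups, and this call was lost with quantile normalization (0.23, adjusted p 0.09423).

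A second Igfbp4 probe set followed the first. It had 804 to 1237 at day 14 and 561 to 957 at day 8, against 327 to 431 in sorted ES cells, with log2 changes of 1.38 and 0.92. In this set day 14 was also above day 8 (0.46, adjusted p 0.004827), although not without day 8 arrays 1, 3 and 5 (0.17, adjusted p 0.4365). The third set lay between 37.4 and 69.4, at or near the lower limit of 59.6 to which low values were raised, and gave no usable change.

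**Figure D3:**
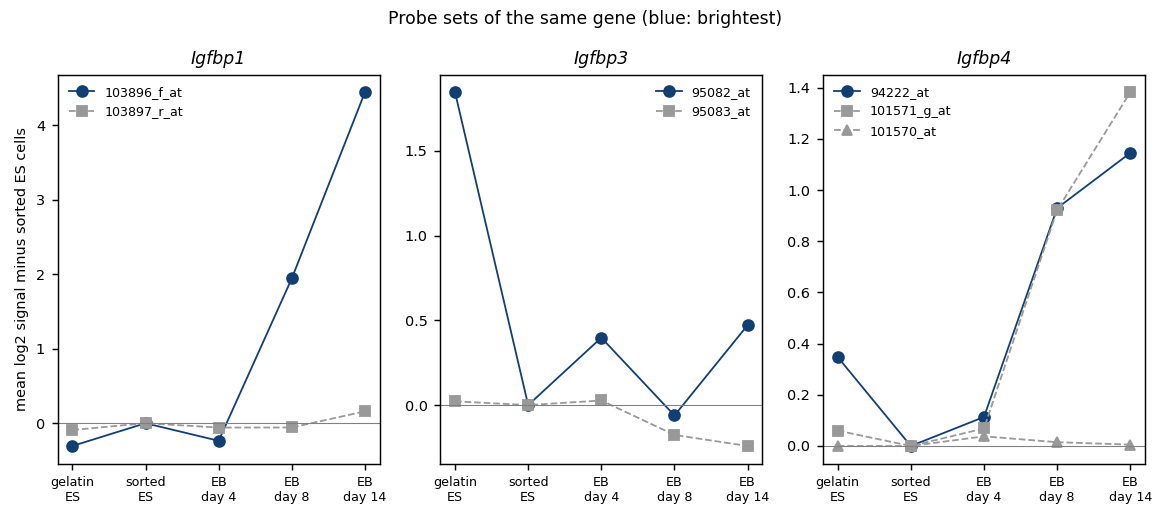
Mean log2 signal of each probe set minus its mean in sorted ES cells, by group, for the 3 Igfbp genes with several probe sets (brightest in blue). The 2 brighter Igfbp4 sets rise at day 8 and day 14, whereas of the Igfbp1 and Igfbp3 sets the brightest moved by up to 4.45 and 1.85 and its partner by no more than about 0.3.

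Igfbp3 encodes the main carrier of IGFs in the blood. It was highest in ES cells on gelatin, where its signals were 4159, 4861, 5648, 6836, 5343 and 5301, against 1533, 1394, 1199, 1825, 1369 and 1596 in sorted ES cells. The groups were far apart, with a 3.60-fold difference (log2 change 1.85 ± 0.16, adjusted p 6.049e-10). At day 4 the signals were 1792, 2385, 1294, 1588, 1619, 2769 and 2635. At day 8 they were 1292, 1568, 1296, 1708, 1263 and 1397, and at day 14 they were 2753, 2371, 1827, 2002, 1970 and 1544. No EB array reached the lowest array of ES cells on gelatin.

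Against ES cells on gelatin Igfbp3 had log2 changes of -1.45 at day 4, -1.91 at day 8 and -1.37 at day 14, all passing (adjusted p at most 7.159e-08). Against sorted ES cells the changes were small, at 0.40 at day 4 (adjusted p 0.06237), -0.06 at day 8 and 0.47 at day 14 (adjusted p 0.01729, with overlapping groups). The day 14 change against sorted ES cells did not pass without day 14 array 1 (0.39, adjusted p 0.0555) or with quantile normalization (0.38, adjusted p 0.06181). The day 4 change against sorted ES cells passed without sorted array 4 (0.46, adjusted p 0.04151) or without day 4 array 3, 4 or 5 (0.44 to 0.50). Day 8 was below day 4 (-0.46, adjusted p 0.03144), which was lost without day 4 arrays 6 and 7 (-0.27, adjusted p 0.1609) and when any of day 4 arrays 2, 6 and 7 or day 8 arrays 1, 3, 5 and 6 was left out alone. Day 14 was above day 8 by 0.53 (adjusted p 0.01318), though not without day 8 arrays 1, 3 and 5 (0.40, adjusted p 0.2528). In order of level, ES cells on gelatin were followed by day 14, day 4, sorted ES cells and day 8, of which day 14 and day 4 were not compared and the differences of day 4 from sorted ES cells and of day 8 from sorted ES cells did not pass.

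The second Igfbp3 probe set gave another picture. It was nearly flat, at 425 to 609 on all arrays, with a log2 change of 0.02 between ES cells on gelatin and sorted ES cells (95% interval -0.08 to 0.12). Day 14 lay below sorted ES cells in this set (-0.24, adjusted p 0.0002115), where the brighter set was higher. The 2 sets come from different transcript records, and which of them follows the Igfbp3 transcript was not tested. The part of RNA quality in their difference on gelatin was not tested either.

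Igfbp7 encodes the secreted, low-affinity member of the family, found in vessel walls and fibroblasts. In ES cells on gelatin its signals were 3529, 2453, 1918, 1997, 1913 and 1952, against 354, 415, 390, 576, 333 and 448 in sorted ES cells. It was 5.41-fold higher on gelatin (log2 change 2.44 ± 0.30, adjusted p 3.041e-07). At day 4 the signals were 416, 870, 346, 310, 309, 137 and 128. At day 8 they were 128, 260, 149, 184, 156 and 233, and at day 14 they were 444, 313, 331, 352, 418 and 266. The day 8 arrays lay below all arrays of sorted ES cells and of day 14, and all EB arrays lay below all arrays of ES cells on gelatin.

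Against ES cells on gelatin, Igfbp7 had log2 changes of -2.90 at day 4, -3.64 at day 8 and -2.68 at day 14 (adjusted p at most 3.904e-08), the last equal to a 6.41-fold lower signal. Against sorted ES cells it was lower at day 8 (-1.20 ± 0.30, adjusted p 0.002848), and the differences at day 4 (-0.47, 95% interval -1.07 to 0.14) and day 14 (-0.24, 95% interval -0.87 to 0.38) did not pass. Without day 8 arrays 1, 3 and 5 the day 8 change was -0.89 and did not pass (adjusted p 0.0745). Without day 4 array 2 the day 4 change was -0.72 and passed (adjusted p 0.03711), and without day 4 arrays 6 and 7 it was 0.00. Day 14 was above day 8 by 0.96 (adjusted p 0.01736), though not without day 8 arrays 1, 3 and 5 (0.64, adjusted p 0.3308). Day 8 against day 4 was -0.74 (adjusted p 0.06726), and it passed without day 4 arrays 6 and 7 (-1.20, adjusted p 0.0001968), without either of them, and without day 8 array 2 (-0.84, adjusted p 0.04705). In order of mean log2 signal, ES cells on gelatin were followed by sorted ES cells, day 14, day 4 and day 8, where sorted ES cells and day 14 were not told apart and day 14 and day 4 were not compared.

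Markers of fibroblasts and feeder cells moved with Igfbp3 and Igfbp7 between the ES cell groups. Of the 20 markers listed 19 were measured, of which 10 were higher and 1 lower on gelatin, where 39.6% of all probe sets passed in either direction. Their summed signal was 31698 to 51155 in ES cells on gelatin and 20029 to 25873 in sorted ES cells. Gelatin array 1, with the highest Igfbp7 signal of 3529, also had the highest sum of 51155, and array 2, with 2453, had the next highest of 41649. On gelatin these arrays also had the highest muscle sums (39922 and 34541) and neural sums (24083 and 21937). Their endothelial sums were the lowest (5860 and 5969). Igfbp3 ran the other way, with its lowest gelatin signals on arrays 1 and 2 (4159 and 4861). Its highest, 6836 on array 4, stood beside the lowest fibroblast and feeder sum of 31698. At day 14 the fibroblast and feeder sums, at 38656 to 58290, overlapped those on gelatin and had a higher median (51149.5 against 34556.5). In these day 14 arrays Igfbp7 was 266 to 444 and Igfbp3 1544 to 2753. None of the 19 markers was at the lower limit on all arrays of any group. Markers of other cells also passed on gelatin against sorted ES cells. The endothelial share lay below the 39.6% of all probe sets, and the muscle share lay near it. Markers of parietal endoderm were higher at 5 of 9 and lower at 0, neural markers were higher at 6 of 12 and lower at 0, muscle markers were higher at 4 of 12 and lower at 1, and endothelial markers were higher at 1 of 10 and lower at 1 (limma, adjusted p under 0.05). Of the 10 pluripotency markers 7 were lower. RNA quality differed between the ES cell groups as well. The Gapdh ratio was 3.48 to 6.85 on gelatin and 2.76 to 3.09 in sorted ES cells. On the EB arrays it was 2.06 to 4.40. The part of RNA quality, of residual feeders and of these other cells in the gelatin signals of Igfbp3 and Igfbp7 was not tested.

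Igfbp6 encodes a binding protein that prefers IGF2. Its signals ranged from 1714 to 1900 in ES cells on gelatin, 1601 to 1993 in sorted ES cells, 1687 to 2002 at day 4, 1690 to 2059 at day 8 and 1415 to 1830 at day 14. Day 14 lay below sorted ES cells (log2 change -0.22, adjusted p 0.005721), below ES cells on gelatin (-0.20, adjusted p 0.01408) and below day 8 (-0.26, adjusted p 0.002961). The groups overlapped in all 3 comparisons. The difference from ES cells on gelatin did not pass with quantile normalization (-0.16, adjusted p 0.07192), and that from day 8 did not pass without day 8 arrays 1, 3 and 5 (-0.16, adjusted p 0.2003). No other comparison passed, with 95% intervals of day 8 against sorted ES cells of -0.09 to 0.17 and of day 4 against sorted ES cells of -0.15 to 0.10.

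**Figure D4:**
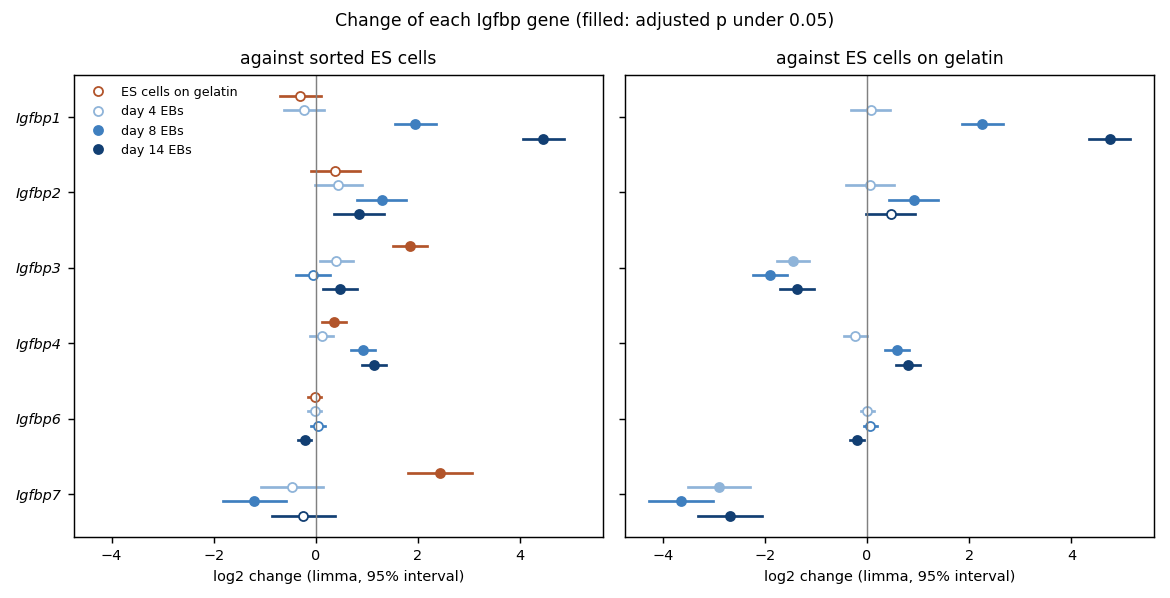
Log2 change of each measured Igfbp gene with its 95% interval (limma), against sorted ES cells on the left and against ES cells on gelatin on the right; filled points passed an adjusted p of 0.05. Igfbp1 rises to 4.45 and 4.75 at day 14, and Igfbp3 and Igfbp7 passed as lower in all 3 EB groups against ES cells on gelatin.

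The choice of ES cells changed which genes passed, and the comparisons with each share the same EB arrays. ES cells on gelatin had the highest mean Gapdh ratio, and the part of RNA quality in comparisons with them was not tested. Only Igfbp3 at day 14 passed with opposite signs, at 0.47 against sorted ES cells and -1.37 against ES cells on gelatin. The first of these calls was lost with quantile normalization and without day 14 array 1. The second Igfbp3 probe set was lower against both groups (-0.24 and -0.26). Against ES cells on gelatin 2 of 6 genes passed at day 4 (24.2% of all probe sets), namely Igfbp3 and Igfbp7, which were lower and did not overlap (8.88% of all probe sets). At day 8 5 of 6 passed (42.9%), with Igfbp1, Igfbp2 and Igfbp4 higher and Igfbp3 and Igfbp7 lower, all 5 without overlap (24.1%). At day 14 5 of 6 passed (45.0%), with Igfbp1 and Igfbp4 higher and Igfbp3, Igfbp6 and Igfbp7 lower, and 4 did not overlap (29.5%). Between EB stages, 4 of 6 passed at day 8 against day 4 (24.5% of all probe sets, with 2 not overlapping against 5.26%) and 4 of 6 at day 14 against day 8 (31.9%, with 2 not overlapping against 13.3%). Igfbp1 was the only gene of the 6 that was higher in both of these steps and without overlap in both.

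Across the 31 arrays Igfbp1 and Igfbp4 had a Pearson r of 0.88 on log2 signals, and 0.66 once group means were removed. Igfbp3 and Igfbp7 had 0.79, and -0.12 within groups, so their likeness lay between the groups. Igfbp2 and Igfbp7 had -0.52, and -0.72 within groups, where day 4 arrays 6 and 7 were high in Igfbp2 and low in Igfbp7. The arrays share their groups and amplification, so these are descriptions without a test.

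The genes most like each member over the 31 arrays were found among the 8251 genes with a probe set of their own. Igfbp1 was closest to Tspan8, a tetraspanin (r = 0.98), Gas1, a membrane protein of hedgehog signalling, and Fga, the fibrinogen alpha chain (0.97 each). Igfbp4 was closest to Gpx3, a secreted glutathione peroxidase (0.94), Ablim1, an actin-binding protein, and Foxa1, a forkhead factor of endoderm (0.93 each). Igfbp2 was closest to Fabp5, a fatty acid binding protein (0.92), Mdk, the growth factor midkine, and Grcc10 (0.91 each). Igfbp7 was closest to Timp3, an inhibitor of matrix proteases (0.98), Ltbp1, which binds latent TGF-beta (0.97), and Axl, a receptor tyrosine kinase (0.96). Igfbp3 was closest to Nes, the intermediate filament nestin (0.91), Inpp5a and Rassf1 (0.90 each), with r within groups of 0.11 to 0.44. For the genes closest to Igfbp4 and Igfbp1, r within groups was 0.43 to 0.51 and 0.53 to 0.85. For those closest to Igfbp2 and Igfbp7 it was 0.81 to 0.86 and 0.86 to 0.88. Igfbp6 had the weakest likeness, at most 0.81 with Traf1.

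Of the ligands, Igf2 rose in the same EB groups as Igfbp1 and Igfbp4. Its mean signal was 3754 in ES cells on gelatin, 3062 in sorted ES cells, 2596 at day 4, 15535 at day 8 and 21133 at day 14. Day 14 was 6.91-fold above sorted ES cells (log2 change 2.79 ± 0.21, adjusted p 2.609e-11) and day 8 4.99-fold (2.32, adjusted p 2.705e-09). All 6 arrays of day 8 (11235 to 20321) and of day 14 (17518 to 24045) lay above all ES cell arrays (2487 to 4330). Igf1 had a mean of 1086 at day 14 and 1138 in sorted ES cells (-0.07, adjusted p 0.3928). Ins2, an insulin gene, had a change of -0.25 at day 14 (adjusted p 0.02463).

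Of the receptors, Igf2r was 2.68-fold higher at day 14 than in sorted ES cells, with means of 5252 and 1956 (1.42 ± 0.13, adjusted p 1.025e-09), and 1.86-fold higher than in ES cells on gelatin. Igf1r, the receptor that passes on the growth signal, was 0.49 higher at day 14 than in sorted ES cells (adjusted p 1.541e-05) and had a change of -0.19 against ES cells on gelatin (adjusted p 0.06032). It was 0.67 higher in ES cells on gelatin than in sorted ES cells (adjusted p 1.657e-07), with signals of 1055 to 1394 against 729 to 805. The insulin receptor Insr did not pass at day 14 against either group, and Insrr, a related receptor, was lower against sorted ES cells (-0.23, adjusted p 0.01458). In all, 3 of the 7 measured ligands and receptors were higher and 2 lower at day 14 against sorted ES cells, where 48.8% of all probe sets passed. Their median was -0.06 beside 0.00 over all probe sets.

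**Figure D5:**
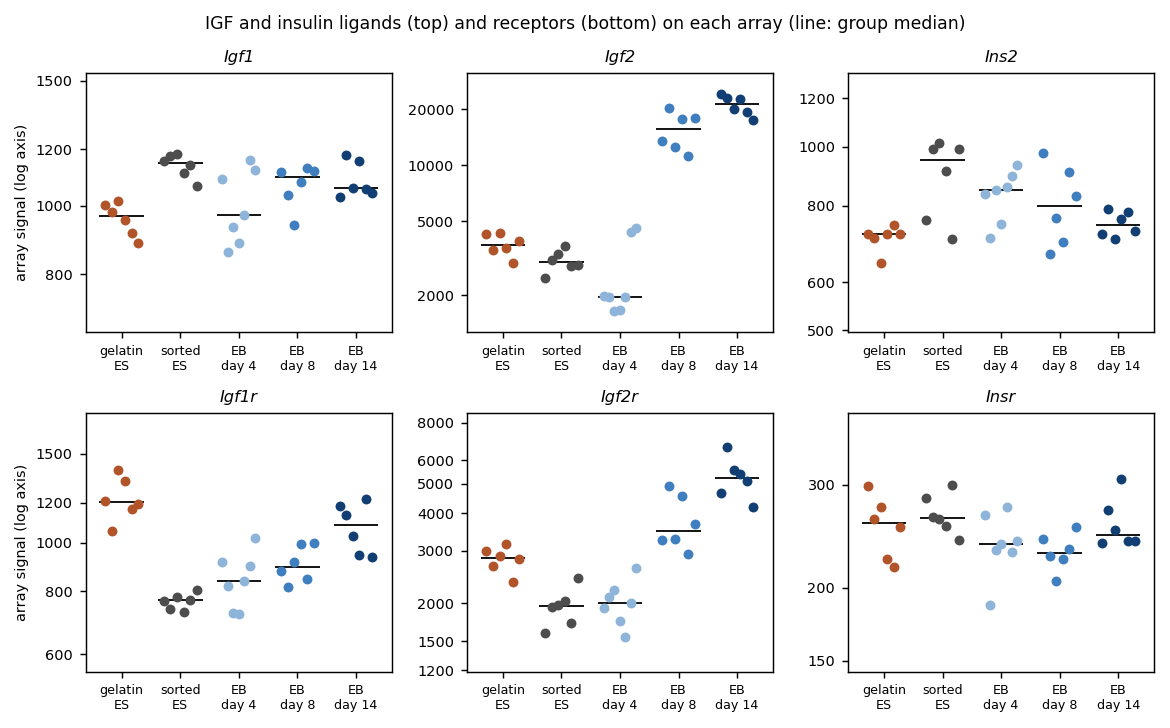
Signal intensity (log axis, one scale per panel) of 3 ligands (top) and 3 receptors (bottom) on each of the 31 arrays by group, with a line at the group median. Igf2 lies at 11235 or above on every day 8 and day 14 array and at 4621 or below on every other array, and Igf1r is higher on gelatin than in sorted ES cells.

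Among the partner, the proteases and the protease inhibitors of IGFBPs, 14 of 16 listed genes were measured, and 6 were higher and 2 lower in day 14 EBs than in sorted ES cells (median 0.13). Of all probe sets 48.8% passed in this comparison. F2, prothrombin, the precursor of a protease that cuts IGFBPs, averaged 1452 at day 14 and 117 in sorted ES cells (3.59 ± 0.20, adjusted p 8.983e-14). Timp1, an inhibitor of matrix proteases, was lower at 1578 against 3704 (-1.23, adjusted p 8.827e-09). Stc2, a stanniocalcin that inhibits PAPP-A, was higher by 0.88 (adjusted p 1.055e-05). The PAPP-A genes themselves had no probe set with 1 symbol.

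Of the IGFBP-related proteins, which share the amino-terminal fold of IGFBPs, 7 of 9 were measured. ES cells on gelatin were above sorted ES cells at 4 of them and below at 0 (limma, where 39.6% of all probe sets passed). These were the matricellular genes Ccn4 (2.26, means 1601 and 320), Ccn1 (2.10, means 4730 and 1128) and Ccn2 (1.32, chosen after its value was seen), and Kazald1 (0.27). At day 14 against sorted ES cells 3 were higher, namely Ccn4 (1.37), Kazald1 (0.58) and Ccn1 (0.55), and 2 were lower (48.8% of all probe sets passed). Against ES cells on gelatin 1 was higher and 5 were lower (45.0% of all probe sets passed). The gelatin signals of Ccn1 and Ccn4 were thus high in the same group as those of Igfbp3 and Igfbp7.

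Igf2bp1, which binds Igf2 mRNA and was the only measured gene of its family of 3, averaged 5553 at day 14 and 1711 in sorted ES cells (1.75, adjusted p 1.043e-08). It was 1.91 higher in ES cells on gelatin than in sorted ES cells (adjusted p 3.297e-09), and day 14 against ES cells on gelatin did not pass (-0.17, adjusted p 0.5049). Of 11 measured receptor substrates and adaptors 2 were higher and 3 lower in day 14 EBs than in sorted ES cells, with Sos2, an exchange factor for Ras, at 1.53, the adaptor Gab1 at -0.70 and Irs2, an insulin receptor substrate, at 0.39. Of 13 measured genes of the PI3K, AKT, FOXO and mTOR pathway 5 were higher and 3 lower. Pik3ca, a catalytic subunit of PI3K, had a change of 1.76, Foxo3, a factor held out of the nucleus by AKT, 1.46 and Eif4ebp1, a repressor of translation that mTOR inactivates, -1.17. In this comparison 48.8% of all probe sets passed.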

How the data were processed

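B6 mouse ES cells and EBs were profiled on 31 MgU74Av2 arrays. The deposited values are signal intensities that the authors made with dChip (normalization and probe-level modeling), on a linear scale. The dChip version and model are not given in the sources used here. Methods list 12 days where the labels give 14, and the labels were followed. Intensity arrays have no depth, so their number limits the precision.

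Of 12488 probe sets, 66 controls were left out. A gene was named from a probe set with 1 symbol in the platform annotation (10833 probe sets, 8251 genes) and represented by its brightest set. Values below the 5th percentile (59.6) were raised to it, and log2 values were fitted with limma 3.58.1 (R 4.3.3, 1 mean per group, all 31 arrays, variance trend), with Benjamini-Hochberg adjustment over 12422 probe sets at 0.05. There were 9 comparisons. The procedure was tested on simulated data. A fold change is on the scale after this lower limit, and folds are ratios of geometric means.

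All Igfbp probe sets with 1 symbol are described. In the pathway lists each ligand and receptor is named, and in each other list up to 3 genes with the greatest change at day 14 against sorted ES cells. Likeness was ranked by Pearson r. The members, lists and rules were chosen with earlier results of these data known. Marker lists covered pluripotent cells, yolk sac endoderm and fibroblasts, besides parietal endoderm, endothelium, muscle and neural cells.

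Promoter sequences are from RefSeq. Arrays of the same number correlated between -0.351 and 0.494 after removal of group means, so the numbers were not used as pairs. The alternatives were normalization by quantiles or by the array median, lower limits at the 1st and 25th percentiles, removal of the dimmest 40%, separate fits of the compared groups, a block for the replicate number, weights for arrays, eBayes without the trend, averaging over a gene's probe sets, and each array left out. Leaving out sets of arrays at day 4 and day 8 was added after seeing the data. Figures were drawn with matplotlib 3.10.9.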

Additional observations from a re-analysis of the deposited data

Results flagged for a closer look

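An array was looked at again where it lay far from the others of its group. This was so in 4 of 50 groups of arrays (10 probe sets in 5 groups each), where chance gives 2.5. Igfbp7 in ES cells on gelatin had 3529 on array 1, with 2453 as its nearest neighbour, and that array had the highest fibroblast and feeder marker sum of its group (51155). Its muscle and neural sums were also the highest of the group (39922 and 24083). Igfbp7 at day 4 had 870 on array 2, with 416 as the nearest, and that array had the highest fibroblast and feeder sum of day 4 (23844). It also had the highest muscle and neural sums of day 4 (13190 and 14858). Igfbp4 at day 8 had 2682 on array 2, with 2061 as the nearest. The second Igfbp3 probe set had 501 on sorted array 2, with 528 as the nearest.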

How the results depend on the processing

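Under the alternatives other than leaving out 1 array, 904 of 956 values for single Igfbp probe sets kept their direction and their side of the threshold or had no call in either fit, 22 lost a call, 29 gained one and 1 reversed, and 26 of the 904 changed sign without a call in either fit. With 1 array left out, 1090 of 1110 were kept, 8 lost a call and 12 gained one. The number of Igfbp genes called at day 4 against sorted ES cells was 1 in place of 0 with 2 groups only (Igfbp1, -0.24, adjusted p 0.02032) and 0 to 1 with 1 array left out. At day 8 against day 4 it was 2 in place of 4 both with 2 groups only and without day 8 arrays 1, 3 and 5. At day 14 against day 8 it was 1 in place of 4 without day 8 arrays 1, 3 and 5. The share of all probe sets passing in these fits was not set beside the counts, so the counts are no result about the family. With 2 groups only Igfbp1 was lower in ES cells on gelatin than in sorted ES cells (adjusted p 0.003756). The third Igfbp4 probe set at day 14 against sorted ES cells was 0.01 and -0.10 with median centring (adjusted p 0.01967), where the median of all probe sets moved to -0.11. With the mean of the gene's probe sets, Igfbp3 at day 14 against sorted ES cells was 0.12 (adjusted p 0.2803) and Igfbp4 in ES cells on gelatin against sorted ES cells was 0.14 (adjusted p 0.146). With a lower limit at the 25th percentile Igfbp7 at day 14 against day 8 was 0.60 (adjusted p 0.05146). With the replicate block Igfbp3 at day 8 against day 4 was -0.39 (adjusted p 0.06441) and lost its call, Igfbp7 was -0.94 (adjusted p 0.01078) and gained one, and of the other brightest probe sets no call changed. The causes were not tested. The dim Igfbp1 and Igfbp4 sets limit what they can show.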
